A study of Mus musculus with 2 samples.

Results

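Cytosolic ribosomal protein genes encode the proteins that, with ribosomal RNA, form the large and the small subunit of the ribosome outside mitochondria. They were chosen by symbol: 91 of 54838 features were named Rpl or Rps with a number and an optional letter or paralogue suffix, or were Rplp0, Rplp1, Rplp2 or Rpsa, and 85 of these had at least 100 UMIs (unique molecular identifiers, each counting 1 captured transcript) over both libraries. Features named as pseudogenes with "-ps" were left out. Rpl6l, Rps3a2 and Rps4l, which the gene annotation classes as processed pseudogenes, met the rule and were kept. The 85 genes comprised 51 with large-subunit and 34 with small-subunit symbols. Rpl3l with 143 UMIs, Rpl6l with 230 and Rps4l with 389 lay just above the minimum. The 6 symbols below it were Rpl32l with 55 UMIs, Rpl39l with 49, Rps6kl1 with 33, Rps3a3 with 13, Rps12l1 with 5 and Rpl10l with none. Rps6kl1 is named for its similarity to S6 kinases and is not a ribosomal protein.

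The study sorted live immune cells from mouse intestine after 10 Gy of X-rays and prepared 1 single-cell library from WT mice and 1 from DPF2 KO mice. DPF2 is a subunit of the BAF chromatin remodelling complex. Both groups were irradiated, so no unirradiated cells were compared here. The sort gated on GFP and tdTomato in both groups, and the labels do not say which cells carried these reporters, which part of Dpf2 was deleted or in which cells, how many mice of which age and sex were pooled, or how long after irradiation they were taken. With 1 library per genotype no test was possible: a difference between the libraries cannot be told apart from a difference between animals or preparations, and every 95% interval in brackets covers counting error only. "Higher" and "lower" below describe these 2 libraries.

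After filtering, 10259 WT and 8265 KO cells remained, with 57454263 and 45042048 UMIs and medians of 4543 and 4112 UMIs per cell. Ribosomal protein genes took 5325823 and 4268786 of these UMIs. Dpf2, the check of the labels, had 33.3 UMIs per 1000000 (31.9 to 34.9) in WT and 19.6 (18.4 to 21.0) in KO, so its transcript was lower but present in KO. The libraries shared 24 barcodes. Cells with Xist and no Y-linked UMIs (2771 and 2326) and cells with Y-linked UMIs and no Xist (3626 and 2264) were found in both. Clustering, from which the ribosomal protein genes were left out, gave 9 cell types with at least 100 cells in each library. Their names are short for clusters with markers like that type. An unnamed cluster that mixed Paneth and B cell genes held 1 WT and 264 KO cells and was not compared. Mitochondrial transcripts took a larger share of UMIs in KO than in WT in 9 of 9 types, from 1.46% against 1.60% in conventional dendritic cells to 1.43% against 2.70% in neutrophils. The part of this difference in the results below was not tested.

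As background, ribosomal protein mRNAs are among the most abundant in lymphocytes, and cells that grow or divide make more ribosomes. Their transcripts start in a short run of pyrimidines, the 5′ terminal oligopyrimidine (TOP) motif, through which mTOR and LARP1 control their translation together. Several ribosomal proteins have duties outside the ribosome: RPL5 and RPL11, with 5S RNA, bind MDM2 and so stabilise p53, the factor that responds to DNA damage such as radiation causes. The paralogue Rps27l is a p53 target in mouse and human cells.

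The start sites of the genes on which the results turn are shown because the TOP run is the element the family shares. The lines give RefSeq windows on build GRCm38.p6, 15 bases before and 15 bases from the start, 5′ to 3′ on the gene's strand, with the longest run of C and T in capitals.
Rps27, chr3:90213634-90213663, minus strand: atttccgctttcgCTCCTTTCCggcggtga
Rps27l, first start, chr9:66946071-66946100, plus strand: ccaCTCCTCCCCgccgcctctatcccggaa
Rpl36a, chrX:134585639-134585668, plus strand: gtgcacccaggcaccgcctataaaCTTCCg
Rpl36al, chr12:69184053-69184082, minus strand: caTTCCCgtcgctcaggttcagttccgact
Rps9, chr7:3704026-3704055, plus strand: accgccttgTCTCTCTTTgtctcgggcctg
Rps19, first of 3 starts, chr7:24884577-24884606, plus strand: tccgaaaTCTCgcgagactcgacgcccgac
Rps28, chr17:33824548-33824577, minus strand: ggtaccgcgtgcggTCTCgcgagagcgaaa
Rps27 and Rps9 had runs of 9 pyrimidines that span the start, whereas the run of 9 in Rps27l lay before it and the other 4 windows held runs of 4 or 5. A RefSeq promoter was found for 62 of the 85 genes. A run of at least 6 C or T within 20 bases on either side of the start, read on the gene's strand, was present in 42 of the 62 (67.7%) and in 41.2% of all 27025 genes with a promoter. The letters CCGGAAG, an ETS-type motif, were sought on either strand of each 300-base promoter (250 bases before to 50 after the start). At least 1 promoter held them in 25 of the 62 genes (40.3%) and in 9.93% of all genes with a promoter. These matches are descriptions of letters, not of sites in use, and annotated starts can lie some bases away from the starts used in these cells.

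The summed ribosomal protein share of all UMIs differed several-fold between cell types and had nearly the same order in the 2 libraries. In WT, B cells were highest at 12.5% of UMIs, followed by conventional dendritic cells at 11.5% and type 2 innate lymphoid cells (ILC2) at 11.0%. T cells at 9.75%, NK cells at 9.56% and monocytes or macrophages at 9.44% lay close together. Type 3 innate lymphoid cells (ILC3) had 6.54% and plasma cells, which secrete antibody, 5.94%. Neutrophils, short-lived cells with little RNA, were lowest at 3.09% (3.04 to 3.14).

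In KO, conventional dendritic cells led at 11.3%, with B cells at 11.2% and ILC2 at 10.1%. T cells had 9.95%, monocytes or macrophages 9.47%, NK cells 9.36%, ILC3 6.21%, plasma cells 5.16% and neutrophils 2.92% (2.89 to 2.95). The order thus differed at B cells against dendritic cells and at NK cells against monocytes or macrophages, pairs whose shares were close. The highest share was 4.05 times the lowest in WT and 3.89 times in KO.

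The spread between cells within a type was wide. In WT B cells the 10th percentile of the share was 8.03% and the 90th 16.1%, and in WT plasma cells these were 2.81% and 8.82%. In neutrophils the 90th percentile, 3.65% for WT and 3.54% for KO, lay below the 10th percentile of B cells in either library. A median neutrophil held 30 ribosomal protein UMIs in WT and 38 in KO, of 1473 and 1747 in all. With called doublets kept, the highest share was 2.90 times the lowest in WT and 2.31 times in KO. Plasma cells spend much of their RNA on antibody: immunoglobulin transcripts took 42.6% of their UMIs in WT and 46.7% in KO. Without immunoglobulin, mitochondrial and Malat1 UMIs their ribosomal protein share was 11.1% and 10.5%, above the 9.82% and 9.83% of monocytes or macrophages counted the same way.

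**Figure D1:**
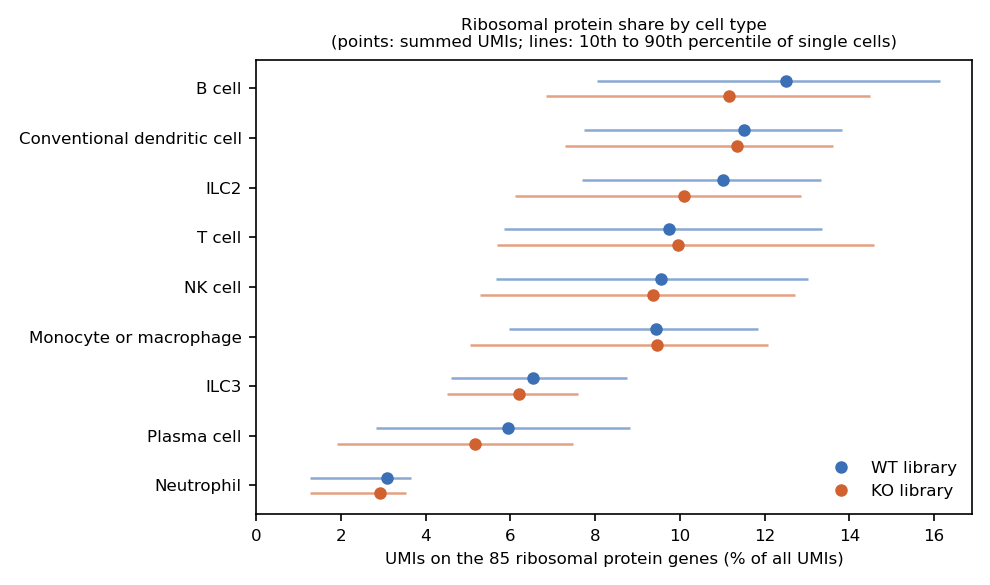
Share of all UMIs that fell on the 85 ribosomal protein genes (x axis, percent) in 9 cell types of the WT (blue) and KO (orange) library; points are summed UMIs and lines span the 10th to 90th percentile of single cells. B cells (12.5% and 11.2%) and neutrophils (3.09% and 2.92%) lie far apart in both libraries, and within a type the 2 points lie close together.

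Subsets of T cells also differed, though over a narrower range than the types. A T cell cluster led by Lef1 and Igfbp4, genes of naive and central memory T cells, had 14.9% in WT and 13.1% in KO. Clusters led by Klrc1 and Cd8a (9.42% and 9.89%), by Il12rb2 and Il18r1 (9.12% and 8.87%) and by Ikzf2 and Tox (10.0% and 9.39%) lay lower. An Il17a and Il23r cluster that received no name had 9.85% and 9.15%. In the myeloid classes, the monocyte cluster had 9.54% and 9.91% and the macrophage cluster, led by C1qa, 7.04% and 6.93%. Among dendritic cells, the Ccl22 cluster had 11.4% and 10.9% and the Xcr1 and Clec9a cluster 11.8% and 12.5%. Of 2 unnamed clusters led by division genes such as Top2a, 1 had 11.7% and 12.0%, and the other, with Mzb1 among its leading genes, 13.5% and 16.0%, on 16 KO cells each. The large-subunit genes supplied between 50.5% and 53% of ribosomal protein UMIs in all 9 types of both libraries, so the balance of the subunits hardly differed where the total did.

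Between the libraries the share differed little, and its direction depended on the cell type. Summed over all cells it was 9.27% for WT and 9.48% for KO, a ratio of 1.022 (1.021 to 1.024). That ratio is not adjusted for the mix of cells, which differed between the libraries. B cells, with a high share, numbered 1094 in WT and 2450 in KO, and plasma cells, with a low share, 1218 and 611. Within types the KO to WT ratio was below 1 in 7 of 9, and in 6 to 8 of 9 over 16 alternative settings. It was lowest in plasma cells at 0.869 (0.865 to 0.873) and B cells at 0.894 (0.891 to 0.897), then 0.916 in ILC2, 0.944 in neutrophils, 0.949 in ILC3, 0.979 in NK cells and 0.984 in conventional dendritic cells. Without immunoglobulin, mitochondrial and Malat1 UMIs the ratio in plasma cells was 0.954, so that B cells, at 0.891, were lowest. Immunoglobulin took 42.6% of plasma cell UMIs in WT and 46.7% in KO. The ratio was 1.003 in monocytes or macrophages (1.0002 to 1.006) and 1.020 in T cells (1.017 to 1.024). In the monocyte cluster alone it was 1.038 (1.035 to 1.042), and in the C1qa macrophage cluster 0.984 (0.970 to 0.998). The C1qa cluster held 93 of the 1540 WT cells and 225 of the 1108 KO cells of that class. With every cluster of at least 20 cells per library given the same weight, the ratio over all cells was 0.986 and that of T cells 0.948. The T cell class held 2859 WT and 1253 KO cells, of which 185 and 297 were in the Lef1 cluster, and the ratio was below 1 in 3 of its 4 clusters.

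Counted gene by gene, B cells and plasma cells were again lower in KO, while in T cells and over all cells the median gene lay just below 0 although the summed share was higher. The median log2 ratio of KO to WT, after adding 10 per 1000000 to each level, was -0.23 in B cells, where 60 of the 82 genes read lay below 0, and -0.23 in plasma cells, where 65 of 81 did. It was -0.03 in T cells with 45 of 82 below 0, and 0.01 in monocytes or macrophages with 37 of 81. Over all cells it was -0.03, with 43 of 81 below 0. The median over all eligible genes was 0.03 in B cells, -0.10 in plasma cells, 0.01 in T cells and 0.07 in monocytes or macrophages. In plasma cells 10 of 81 eligible ribosomal protein genes were at least 1.5-fold lower in KO, where 4.58% of all eligible genes were. In B cells 3 of 81 were, against 2.49% of all eligible genes. Median depth was 3499 and 3330 UMIs in B cells and 8620 and 7615 in plasma cells.

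Relative to one another, the ribosomal protein genes kept nearly fixed proportions across cell types. Each gene's share of the summed ribosomal protein UMIs of a type was set against the median of that share over the 9 types, in each library. Of 725 pairs of a gene and a type that could be read, 702 lay within 1.5-fold of the median in both libraries. At least 2-fold the same way in both libraries were 3 pairs higher (0.414%) and 1 lower (0.138%). By the same measure, with every gene set against the ribosomal protein sum, 12.0% of 58162 pairs of all genes were higher and 6.98% lower. That sum is made of the ribosomal protein genes themselves, so the measure centres them by design. Other genes also take on the sum's own spread between types, so the percentages are not a like comparison. The 4 pairs involved 3 genes, Rps27l, Rpl36al and Rps9. Plasma cells held 2 of the higher pairs out of 81 genes read, where 12.4% of all genes were higher, and B cells the lower pair out of 82, where 11.3% of all genes were lower. The 3 genes that could be read in no type were Rpl3l, Rpl6l and Rps4l.

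**Figure D2:**
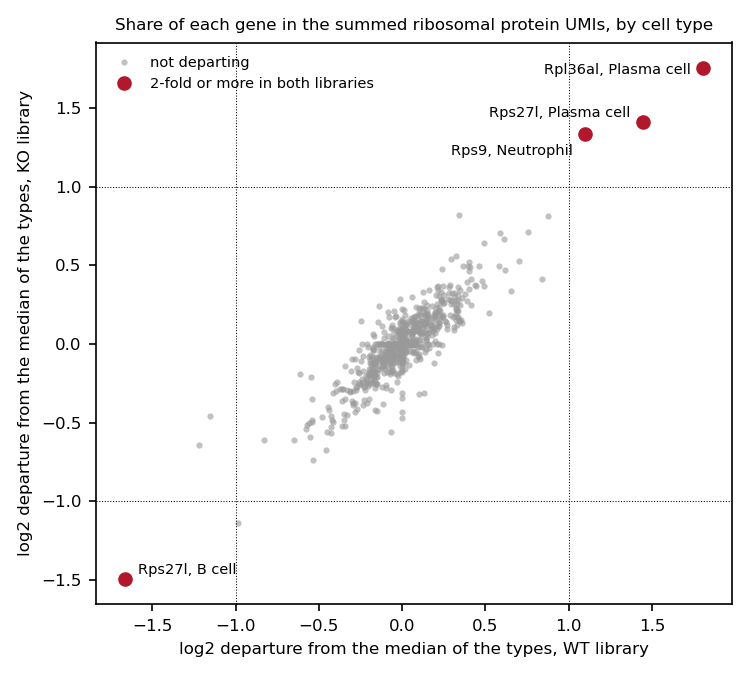
Each point is 1 gene in 1 cell type: the log2 of its share of ribosomal protein UMIs over the median share of the 9 types, in WT (x axis) and KO (y axis), with dotted lines at 2-fold. Of 725 points, 4 lie beyond 2-fold in both libraries, namely Rpl36al and Rps27l in plasma cells, Rps9 in neutrophils and Rps27l in B cells.

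Rps27l (chromosome 9, 66946086 to 66949516, plus strand) is the paralogue of Rps27, which codes for a zinc-binding small-subunit protein. It had 270 UMIs per 1000000 in WT plasma cells (260 to 280) and 245 in KO (231 to 259). In B cells, from which plasma cells develop, it had 65.9 in WT (58.4 to 74.0) and 70.6 in KO (65.3 to 76.2). Plasma cells thus lay several-fold above B cells in both libraries, and the intervals did not overlap. Conventional dendritic cells had 288 and 329 and monocytes or macrophages 186 and 204. ILC3 had 123 and 118 and ILC2 104 and 118, whose intervals overlapped. T cells had 82.3 and 80.2, NK cells 68.6 and 107, and neutrophils 51.5 and 51.9. Its log2 departure was 1.45 and 1.42 in plasma cells and -1.66 and -1.49 in B cells. The T cell value, -0.98 and -1.14, was just short of 2-fold in WT.

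Rps27 (chromosome 3, 90212522 to 90213651, minus strand) ran the other way, with 708 and 737 per 1000000 in plasma cells and 2632 and 2783 in B cells. That scale counts immunoglobulin, which took 42.6% and 46.7% of plasma cell UMIs. By share of ribosomal protein UMIs, the log2 departure of Rps27 was -0.58 and -0.54 in plasma cells and 0.24 and 0.26 in B cells. Conventional dendritic cells, at -0.54 and -0.49, lay close to plasma cells. Of the UMIs of the 2 paralogues, Rps27l made up 27.6% in WT plasma cells (26.8 to 28.5) and 24.9% in KO (23.7 to 26.2). In B cells it made up 2.44% (2.17 to 2.74) and 2.47% (2.29 to 2.67). Conventional dendritic cells had 17.0% and 16.4%, monocytes or macrophages 11.3% and 11.9%, and ILC3 9.10% and 8.35%. The lymphoid types T cells (4.27% and 3.32%), NK cells (3.87% and 5.38%) and ILC2 (5.05% and 4.86%) lay with neutrophils (5.25% and 4.96%) near the B cell end. With only the cells that had Y-linked and no Xist UMIs, the smaller departure of Rps27l in B cells was -0.95, short of 2-fold. Of the 60-base stretches in the last 300 bases of Rps27l, 11.0% also occurred in a transcript of another gene, and 56.3% of those in Rps27 did.

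Rpl36al (chromosome 12, 69182731 to 69184083, minus strand) is a paralogue of Rpl36a (chromosome X, 134585654 to 134588062, plus strand), which codes for a large-subunit protein near the exit site for tRNA. Rpl36al had 300 per 1000000 in WT plasma cells (289 to 311) and 268 in KO (254 to 283), its highest level of the 9 types in both libraries. Monocytes or macrophages had 214 and 184 and conventional dendritic cells 206 and 185. ILC2 (147 and 119), T cells (141 and 111), B cells (131 and 108), ILC3 (120 and 106) and NK cells (108 and 106) followed within a narrow range, and neutrophils had 40.8 and 44.8. As a share of ribosomal protein UMIs, Rpl36al took 0.505% and 0.520% in plasma cells against medians of 0.144% and 0.154%, a log2 departure of 1.81 and 1.76.

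Rpl36al made up 46.5% of the UMIs of the pair in WT plasma cells (45.3 to 47.7) and 38.2% in KO (36.5 to 39.8). In B cells it made up 12.5% and 9.39%, and in T cells 21.5% (20.6 to 22.4) and 12.0% (11.1 to 12.9). The Rpl36al part was smaller in KO in 9 of 9 types, with overlapping intervals in ILC2, ILC3, NK cells and neutrophils. All 60-base stretches of the last 300 bases of Rpl36a (100%) and 66.1% of those of Rpl36al also occurred in other genes' transcripts. How such reads were assigned or dropped can therefore set the levels of this pair, and its part in the result was not tested.

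**Figure D3:**
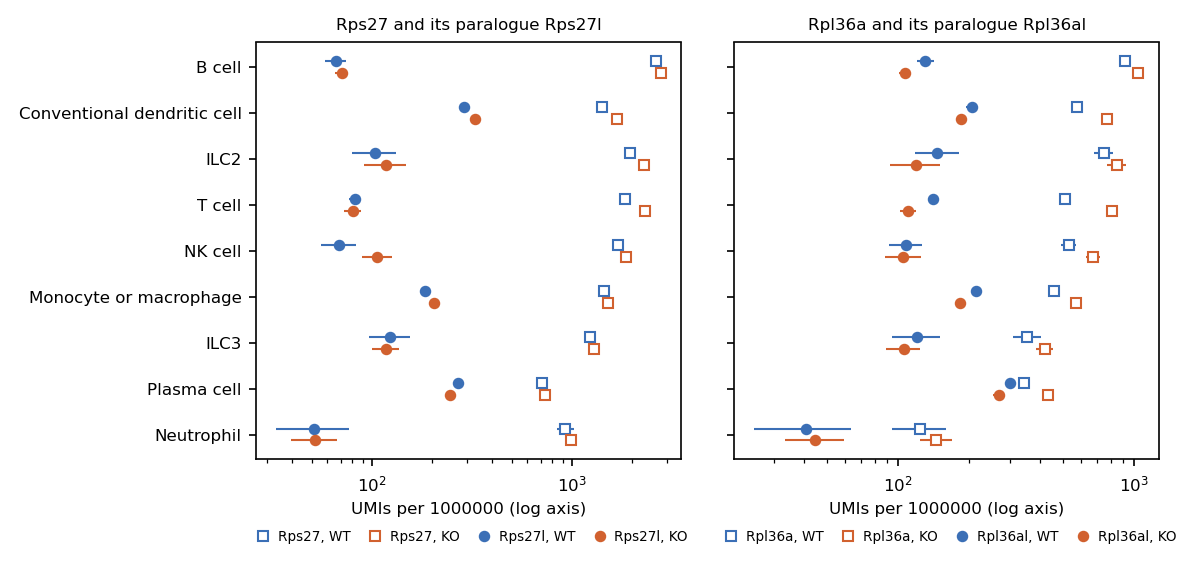
UMIs per 1000000 (log axis) of Rps27 and Rps27l (left) and of Rpl36a and Rpl36al (right) in 9 cell types of the WT (blue) and KO (orange) library, with 95% Poisson intervals as lines. In plasma cells Rps27l (270 and 245) and Rpl36al (300 and 268) are high. Rps27 (708 and 737) is lower there than in the other types on this scale, which counts immunoglobulin UMIs.

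Rps9 (chromosome 7, 3703993 to 3706897, plus strand), a small-subunit protein that binds early in subunit assembly, took 4.60% of ribosomal protein UMIs in WT neutrophils and 5.13% in KO, against medians of 2.15% and 2.03%. The log2 departure was 1.10 and 1.34. In UMIs per 1000000 the neutrophil level, 1421 in WT (1315 to 1533) and 1497 in KO (1427 to 1570), lay within the range of the other types. B cells had 2648 and 2228, monocytes or macrophages 2744 and 2499, and T cells 2019 and 2021, whereas ILC3 had 1642 and 1464 and plasma cells 972 and 852. In neutrophils 50.9% of all genes were at least 2-fold higher by this measure, since it divides by the low ribosomal protein sum. The departure rested on 662 and 1702 UMIs and was 0.70 in the library where it was smaller when called doublets were kept, short of 2-fold.

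Short of 2-fold in both libraries were Rpl41 in plasma cells (log2 departure 0.88 and 0.81), a gene for a very short large-subunit peptide, and Rps27 in neutrophils (0.76 and 0.72). Rpl22l1, the paralogue of the large-subunit gene Rpl22, lay at 0.61 and 0.67 in ILC3, and Rpl10, whose product joins the large subunit late, at -0.65 and -0.61 in T cells. Rpl12, which codes for a protein at the base of the ribosomal stalk, lay at -0.57 and -0.52 in monocytes or macrophages. These 5 genes thus differed from their usual proportion by less than 2-fold, in the same direction in both libraries.

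As parts of their pairs, Rpl22l1 and Rpl7l1 differed less between cell types than Rps27l and Rpl36al. Rpl22l1 made up between 19.7% (neutrophils) and 30.4% (ILC2) of the UMIs of Rpl22 and Rpl22l1 in WT types. In plasma cells its part was 24.0% for WT (23.1 to 25) and 18.2% for KO (16.8 to 19.7), and in T cells 26.1% and 26.2%. Rpl7l1, whose product is thought to act in ribosome assembly, made up 1.82% to 5.56% of its pair with Rpl7 in WT and 2.18% to 5.49% in KO. The 5.56% of WT neutrophils rested on 9 Rpl7l1 UMIs (2.57 to 10.3). B cells had 3.50% (3.01 to 4.03) and 4.61% (4.18 to 5.07). Plasma cells were lower in both libraries, at 1.82% (1.53 to 2.16) and 2.18% (1.66 to 2.80). Rps4l, named after the X-linked Rps4x and annotated as a transcribed processed pseudogene, had 229 UMIs in WT and 113 in KO. Rpl3l, a paralogue of Rpl3 that is typical of muscle, had 52 and 72 UMIs, of which neutrophils held 5 and 22. Rpl10 and Rpl39 could not be set beside Rpl10l and Rpl39l, which lay under the minimum.

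Between the libraries, a few ribosomal protein genes lay apart from the rest. Each gene's log2 ratio of KO to WT was set against the median ratio of the ribosomal protein genes of the same type. Of 724 pairs of a gene and a type, 11 were at least 1.5-fold above that median (1.52%) and 2 at least 1.5-fold below it (0.276%). Of all eligible genes, 8.97% of 49812 pairs lay at least 1.5-fold from it either way. That median is taken over the ribosomal protein genes alone, so it centres them and not the other genes. The genes at least 1.5-fold above the median were Rps19, Rps28, Rpl36a, Rps27l and Rpl4, and those below included Rpl10a.

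T cells held 3 of the pairs out of 82 genes read, where 6% of all eligible genes lay as far from the median. Rps19 (chromosome 7, 24884371 to 24889806, plus strand), a small-subunit protein needed to mature that subunit's RNA and the gene most often mutated in Diamond-Blackfan anaemia, had 1206 per 1000000 in WT T cells and 1956 in KO, 1.62-fold higher (1.58 to 1.66). Rps28 (chromosome 17, 33819027 to 33824562, minus strand), another small-subunit protein, had 913 and 1450, 1.59-fold higher (1.54 to 1.63). Rpl36a had 513 and 811, 1.58-fold higher (1.52 to 1.64). The pattern differed among T cell clusters. Rps19 had 1099 and 2086 in the Klrc1 cluster, 1106 and 1915 in the Il12rb2 cluster and 1304 and 1700 in the Ikzf2 cluster, but 2118 and 2184 in the Lef1 cluster. With the clusters weighted alike, the log2 departure of Rpl36a in T cells was 0.52, short of 1.5-fold, while those of Rps19 and Rps28 were 0.60 and 0.61.

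Rps19 was also higher in KO in ILC2, with 1670 and 2477 per 1000000, in NK cells with 1021 and 1578, and in plasma cells with 681 and 915. In those types it stood at 0.73, 0.67 and 0.65 above the median on the log2 scale. In ILC2 it was 0.57 in cells with Y-linked UMIs only, and in NK cells 0.36 with clusters at resolution 2, both short of 1.5-fold. In B cells its level was nearly equal, 1793 (1753 to 1833) and 1804 (1777 to 1832), and in neutrophils it was 341 and 367 with overlapping intervals. ILC3 had 820 and 1045, monocytes or macrophages 1128 and 1404, and conventional dendritic cells 1522 and 1896.

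Rps28 departed in ILC2 (1015 and 1492 per 1000000), in ILC3 (588 and 868) and in conventional dendritic cells (1205 and 1782), besides T cells. It was short of 1.5-fold under 3 of 18 alternatives in conventional dendritic cells (lowest 0.52), in ILC2 after thinning (0.52) and in ILC3 in cells with Xist only (0.583). In B cells it had 1493 and 1884, in NK cells 939 and 1307, in plasma cells 613 and 779 and in monocytes or macrophages 1246 and 1553. Neutrophils had 350 and 416, with intervals that overlapped. Of all eligible genes, 18.9% in ILC2, 13.3% in ILC3, 7.13% in conventional dendritic cells, 7.36% in NK cells and 7.7% in plasma cells lay at least 1.5-fold from the ribosomal protein median. The genes read numbered 80, 80, 82, 80 and 81 in these types, and 2, 1, 1, 2 and 1 of them departed. In B cells and in monocytes or macrophages, none of 82 and 81 departed, where 8.54% and 7.13% of all eligible genes did.

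Rps19, Rps28 and Rpl36a lay above the ribosomal protein median in all 27 combinations of gene and type, by 0.19 to 0.73 on the log2 scale, and after thinning cells to 1000 UMIs Rps19 in neutrophils lay at -0.04. The types share the same 2 libraries, so they are not repeats of the comparison. Rps19, Rps28 and Rpl36a were chosen because they departed upward in these libraries, so their common direction is no separate support. Of 76 genes read in all 9 types, 19 lay above the median in all 9. By cluster, in 15 clusters with at least 100 cells per library, 44 of 45 values were above the median. They ran from -0.12 (Rps28 in a shallow unnamed cluster) to 0.90 (Rps19 in the Klrc1 cluster). B cells, plasma cells, neutrophils, NK cells, ILC3 and ILC2 were each a single cluster, so their values are the same in both counts. Of 60-base stretches near the 3′ end, 39.5% of those of Rps19, 23.5% of those of Rps28 and 100% of those of Rpl36a recurred in other genes.

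The other departing pairs rested on few UMIs. Rps27l in NK cells rested on 102 and 135 UMIs, or 68.6 (55.9 to 83.3) and 107 (89.4 to 126) per 1000000, and was short of 1.5-fold under 3 of 14 alternatives (lowest 0.43). In neutrophils 3 of 76 genes departed, where 23.6% of all eligible genes did. Among them Rpl10a, part of the large subunit's L1 stalk, had 232 and 136 per 1000000 on 108 and 155 UMIs, and was short of 1.5-fold under 3 of 16 alternatives. Rpl4, a protein of the exit tunnel, had 25 and 91 UMIs there, and the interval of its ratio (0.949 to 2.42) included 1. It was short of 1.5-fold under 6 of 15 alternatives.

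Below the 1.5-fold line the genes kept a common order from type to type. Of 76 genes read in all 9 types, 19 lay above the ribosomal protein median in all 9 and 23 below it in all 9. The highest medians over types were those of Rps28 (0.57), Rps19 (0.47), Rpl37a (0.46), Rpl23a (0.45), Rplp2 (0.41) and Rps25 (0.40). Among the lowest were those of Rps7 (-0.40), Rpl15 (-0.38), Rps4x (-0.36) and Rps3 (-0.33). Rpl37a had 3074 and 4093 per 1000000 in T cells and 3762 and 4485 in B cells. Rps7 had 1121 and 830 in T cells and 1451 and 930 in B cells. Of the 19 genes, 11 had small-subunit and 8 large-subunit symbols, and of the 23, 9 and 14. Since all 9 types come from the same pair of libraries, this order describes the pair.

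**Figure D4:**
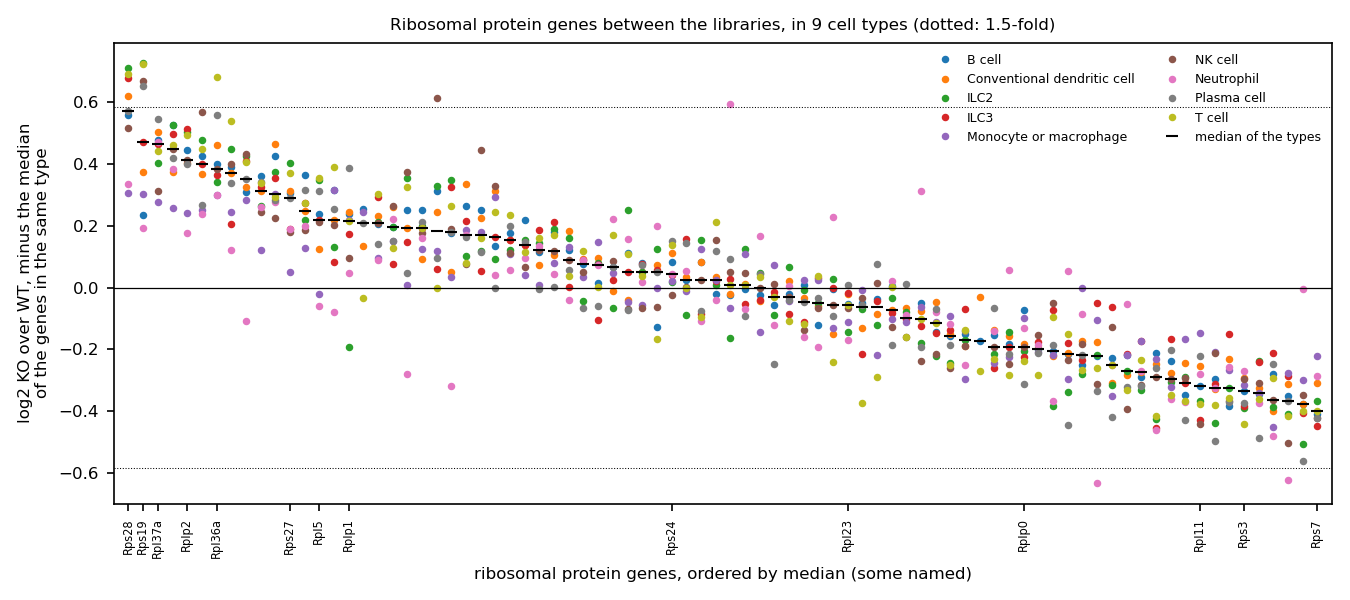
For each ribosomal protein gene (x axis, ordered by median, with some genes named), points show the log2 ratio of KO to WT minus the median of the genes in the same cell type, coloured by the 9 types, and black dashes the median over types; dotted lines mark 1.5-fold. Rps28 and Rps19 lie at the left end with medians of 0.57 and 0.47, and Rps7 at the right end with -0.40.

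The genes at the upper end had shorter transcripts. The median length of the principal transcript was 539 bases for the 19 genes above the median in all types, 842 bases for the 23 below it and 887 bases for the other 34. These lengths are annotated ones and can differ from those of the mRNAs in these cells. They reached 5130 bases for Rps15a and 3706 for Rps20. Across 82 genes in all cells, transcript length and the log2 ratio had a Spearman rho of -0.39, and within types it ran from -0.46 (conventional dendritic cells) to -0.30 (plasma cells). The 28 shortest genes, up to 673 bases, had a median log2 ratio of 0.19 and the 28 longest, from 946 bases, -0.05. Genes are not independent replicates, and all of these values come from the same 2 libraries. Over their whole length range the other eligible genes ran the opposite way, with a rho of 0.22 over 7547 genes in all cells. Among short transcripts they did not: the 43 of up to 500 bases had a median of -0.05 and the 447 of 500 to 1000 bases, the length of most ribosomal protein transcripts, -0.26. The median part of sequence shared with other genes was 46.5% for the 19, 50.8% for the 23 and 33.7% for the other 34.

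**Figure D5:**
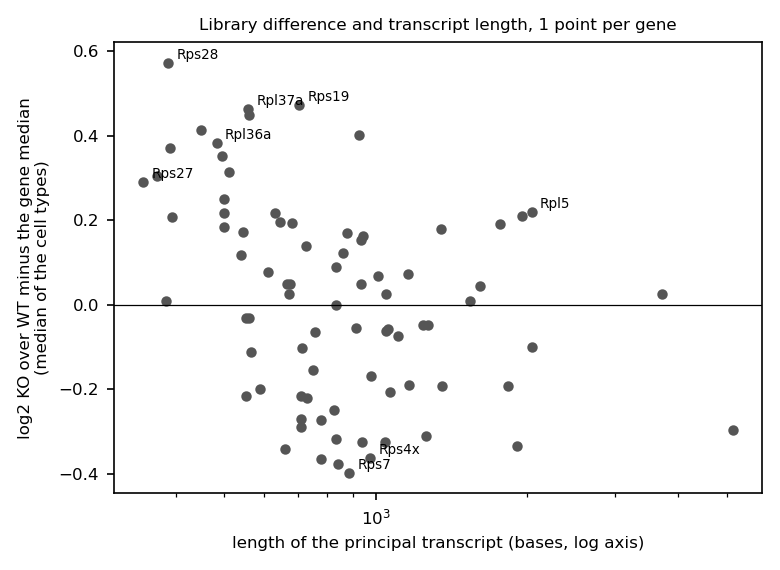
Each point is 1 ribosomal protein gene. The x axis gives the median length of its principal transcripts (bases, log scale). The y axis gives the median over cell types of its log2 ratio of KO to WT minus the gene median. The points above 0.3 are mostly short transcripts, such as Rps28 with 387 bases, while Rps7 with 887 bases lies lowest.

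By role, the acidic stalk, which recruits translation factors to the large subunit, did not share a direction. Rplp0, which anchors it, had 917 per 1000000 in WT T cells and 759 in KO and lay below the ribosomal protein median in 9 of 9 types. Rplp2 had 2061 and 2844 and lay above it in 9 of 9, and Rplp1, with 3046 and 3463, in 8 of 9. The exception for Rplp1 was ILC2, with 5836 and 4576. Rplp1 in ILC2 stood above its level in the other types, the next highest being 3662 and 3692 in B cells.

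Among the genes whose products bind MDM2, Rpl11 had 1060 and 797 per 1000000 in T cells and 1216 and 831 in B cells, and lay below the median in 9 of 9 types. Rpl5 had 731 and 917 in T cells and 863 and 871 in B cells, above the median in 7 of 9. Rpl23 had 2303 and 2165 in T cells and lay below it in 8 of 9. Rpl5 and Rpl11, whose products act in the same complex, thus lay on opposite sides of the ribosomal protein median in 7 of 9 types.

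The Diamond-Blackfan anaemia genes chosen for naming are not all genes of that disease. Among those chosen other than Rps19, Rpl35a (1194 and 1480 per 1000000 in T cells) and Rps10 (603 and 645) lay above the median in 9 of 9 types. Rps26 (1248 and 1532) and Rps24 (3201 and 3443) did in 8 of 9. Rps7 lay below it in 9 of 9. Rps26 had opposite directions in NK cells, with 1185 and 1492, and neutrophils, with 472 and 362, as did Rpl3 with 920 and 1019 and with 262 and 194. Rpsa, which codes for a small-subunit protein also known as a laminin receptor, had 1634 and 1827 in T cells and lay above the median in 9 of 9. Rps6, the S6 protein that S6 kinase phosphorylates, had 7659 UMIs in WT and 6647 in KO. Of the 60-base stretches at its 3′ end, 82.6% recurred in other genes, and their part in this count was not tested. Over 82 genes, that percentage and the UMIs of a gene had a Spearman rho of -0.09. The genes with most UMIs were Rpl37a with 310476, Rps24 with 298144 and Rplp1 with 293780.

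Genes that build or work with the ribosome did not follow the ribosomal proteins in every type. Of 26 ribosome biogenesis genes, 22 of the 23 eligible in monocytes or macrophages lay above 0 in log2 ratio of KO to WT, with a median of 0.32 against 0.07 for all eligible genes, and 3 were at least 1.5-fold higher in KO, as 4.39% of all eligible genes were. These were Gnl3, a nucleolar GTP-binding protein (24.7 and 53.5 per 1000000), Wdr43 (31.7 and 56.9) and Rrs1 (10.4 and 20.9). In T cells 18 of 23 lay above 0 with a median of 0.17, and in B cells 16 of 26 with a median of 0.05. In plasma cells 19 of 22 lay below 0 with a median of -0.12, near the -0.10 of all eligible genes. Ribosomal protein genes had a median of 0.01 in monocytes or macrophages, so the 2 groups differed there in these libraries.

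Translation factors, many of which also start in a TOP run, lay slightly lower in KO. In T cells 14 of 19 were below 0 with a median of -0.15, in B cells 13 of 19 with -0.10 and in plasma cells 17 of 19 with -0.29. Eef1d, a subunit of the elongation factor complex, had 138 and 94.6 per 1000000 in T cells, and in plasma cells 92.2 and 51.2. Naca, which guides nascent chains, had 508 and 351 in T cells. Of the regulators of TOP mRNAs and mTOR, 8 of 9 were above 0 in T cells with a median of 0.08, among them Myc with 37.9 and 54.5, and 7 of 11 were below 0 in plasma cells with a median of -0.12.

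The mitochondrial ribosomal protein genes, which build a separate ribosome, lay mostly below 0 in log2 ratio of KO to WT in 4 of the 5 types with more than 6 eligible. In T cells 40 of 48 were below 0 with a median of -0.28, in plasma cells 57 of 63 with -0.29, in B cells 39 of 49 with -0.23 and in conventional dendritic cells 59 of 70 with -0.17. In monocytes or macrophages 33 of 62 were, with a median of -0.03. All eligible genes had medians of 0.01, -0.10, 0.03, -0.01 and 0.07 in these 5 types, in the same order. Eligible genes outside the cytosolic family with transcripts of 500 to 1000 bases had medians of -0.38, -0.30, -0.27, -0.18 and -0.09. The part of transcript length in the mitochondrial ribosomal protein values was not tested. Mrps24 had 45.1 and 21.4 per 1000000 in T cells, and Mrps14 in plasma cells had 56.1 and 30.2. At least 1.5-fold lower were 6 of 48 in T cells and 6 of 63 in plasma cells, where 3.41% and 4.58% of all eligible genes were.

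The p53 target list is given because Rps27l is a p53 target. In T cells 8 of 10 were above 0 with a median of 0.45, in plasma cells 9 of 10 with 0.35, in NK cells 8 of 8 with 0.49 and in ILC2 6 of 6 with 0.53, whereas in neutrophils 5 of 6 were below 0 with -0.32. All eligible genes had medians of 0.01, -0.10, 0.02, 0.04 and 0.05 in these types. In B cells 5 of 8 were above 0 with a median of 0.13, and in conventional dendritic cells 6 of 10 with 0.12. In ILC3 4 of 6 were, with 0.07, and in monocytes or macrophages 6 of 10 with 0.06. All eligible genes had medians of 0.03, -0.01, 0.03 and 0.07 there. Cdkn1a, which halts the cell cycle, had 219 and 354 per 1000000 in T cells and 228 and 392 in NK cells. Rps27l had 82.3 and 80.2 in T cells and 68.6 and 107 in NK cells, so it was higher in KO beside these genes in NK cells, nearly equal in T cells and lower in KO in plasma cells (270 and 245).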

How the data were processed

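The authors sorted live intestinal immune cells and made droplet libraries with UMIs, per the labels' protocols. The deposited values are raw UMI counts per gene and barcode. The submitters' processing notes name Cell Ranger 7.0.0 and build GRCm38. How introns and reads matching several genes were handled, and which gene annotation served, is not given in the sources used. Deposited barcodes numbered 10958 (WT, 64786549 UMIs) and 8794 (KO, 49590755 UMIs). Barcodes with fewer than 200 genes or 500 UMIs (5 and 34) or over 20% mitochondrial UMIs (57 and 79) were left out, as were doublets called by Scrublet in scanpy 1.11.5 (637, or 5.85%, and 416, or 4.79%).

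Cells of the 2 libraries entered 1 clustering, with no correction between libraries. Logged counts per 10000, for 2000 variable genes that excluded antigen receptor segments and the ribosomal protein genes, gave 30 principal components and a graph of 20 neighbours. Leiden clusters were taken at resolution 1 with leidenalg 0.10.2 and igraph 0.11.9. A cluster took the type with the highest mean scaled marker score. It stayed unnamed if no type had enough markers in it. The same held if another type had several markers, or more than its own, among its 10 leading genes. A shallow cluster also stayed unnamed if none of its own type's markers was among those 10. Markers were fixed with the design, while this naming rule followed a first look at the clusters. The ribosomal protein genes and the lists were chosen with earlier results of these data known.

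Levels are UMIs summed over a type's cells per 1000000 UMIs. They are not divided by length, so levels are compared between types and libraries for a gene, not between genes. A gene was read in a type with at least 100 UMIs over both libraries (between types also with 100 UMIs expected from its median share). Among lists and all genes, eligibility also needed a UMI in 5% of cells in at least 1 library. Log2 ratios had 10 per 1000000 added. Departing meant 2-fold between types in both libraries, or 1.5-fold between libraries from the ribosomal protein median. Shares carry exact Clopper-Pearson, levels exact Poisson and ratios conditional binomial 95% intervals, checked on simulated counts. UMIs count molecules, but these intervals cover counting error only.

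Genes named with values were those departing, the paralogue pairs, the stalk and the genes whose products bind MDM2. Also named were a list of Diamond-Blackfan anaemia genes, Rpsa, Rps6, the 3 genes with most UMIs, and leading genes of the accompanying lists. Genes given for values short of a threshold or at the ends of the order between libraries (such as Rpl41, Rpl12, Rpl37a, Rpl23a, Rps25, Rpl15, Rpl3 and Rps3) were chosen after their values were seen, as was the comparison with transcript length. Gene positions, transcript lengths and shared 60-base stretches are from GENCODE vM21 on GRCm38, which held 54809 of 54838 feature IDs (99.9%). Promoters are from RefSeq. No protein sequences were used here. Some genes that these rules name are not reported here, though counts and medians over the family include them.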

Additional observations from a re-analysis of the deposited data

Results flagged for a closer look

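The ribosomal protein share had a KO to WT ratio of 1.003 in monocytes or macrophages and 1.02 in T cells, while it was below 1 in each of the other 7 types compared. The difference between types was not tested, since each type has 1 library per genotype. The monocyte or macrophage value lay so close to 1 that 6 of 16 alternative settings put it below 1, and the T cell value was below 1 in 2 of 16.

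The log2 ratio of KO to WT of Rps26 was 0.33 in NK cells and -0.37 in neutrophils, opposite directions on 1763 and 1889 UMIs in NK cells and on 220 and 412 in neutrophils. This difference was not tested either.

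Features named as ribosomal protein pseudogenes, which lie outside the main measurement, held 46718 UMIs in the kept cells, 0.0464% of all UMIs in WT and 0.0445% in KO. Over all barcodes their 298 features held 0.486% of the number of UMIs on the ribosomal protein genes. For Rps6, pseudogene features held 12.5% as many UMIs as the gene itself.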

How the results depend on the processing

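No paired analysis was possible because each genotype has 1 library and the labels give no replicate numbers. Over all cells the ribosomal protein share was lower in KO under 4 alternatives, with KO to WT ratios of 0.987 without immunoglobulin, mitochondrial and Malat1 UMIs, 0.987 as a mean over cells, 0.991 after thinning each cell to 1000 UMIs (424 WT and 312 KO cells left out) and 0.986 with clusters weighted alike. It was 1.024 with doublets kept, 1.024 with a mitochondrial limit of 10%, 1.004 in cells with Xist only and 1.041 in cells with Y-linked UMIs only.

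Within types, the direction turned in conventional dendritic cells with clusters weighted alike (1.011), in T cells with clusters weighted alike (0.948) and with the Il17a cluster, an alternative chosen after seeing the data, counted as T cells (0.993), and in NK cells at resolution 2 (1.076) and in cells with Xist only (1.003). In monocytes or macrophages it turned with the ribosomal protein genes among the clustering genes (0.99998), at resolution 2 (0.997), as a mean over cells (0.975), thinned (0.973), with Xist only (0.986) and with Y-linked UMIs only (0.992). In neutrophils it turned with doublets kept (1.151), as a mean over cells (1.022), thinned (1.005) and with Xist only (1.138). Ratios in B cells, plasma cells, ILC2 and ILC3 stayed below 1 in 16 of 16 alternatives each.

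The highest over the lowest share in WT was 4.22 with the ribosomal protein genes among the clustering genes, 2.90 with doublets kept, 4.23 with the 10% limit, 5.03 as a mean over cells, 4.85 thinned, 3.55 with Xist only, 3.06 with Y-linked only and 3.93 with 3 genes of other ribosome components added. In KO it was 2.31 with doublets kept, 3.77 without immunoglobulin, mitochondrial and Malat1 UMIs, 4.40 as a mean over cells, 4.32 thinned, 4.02 with clusters weighted alike, 2.80 with Xist only, 3.39 with Y-linked only and 3.78 with the 3 genes added. Pairs departing between types numbered 9 with no minimum of UMIs, and between libraries 24 thinned and 23 with Y-linked only. The causes were not tested. In neutrophils Rps19 after thinning lay at -0.04 from the ribosomal protein median. Depth limits most the neutrophils, with medians of 1473 and 1747 UMIs per cell, and genes under 100 UMIs were not read.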
